A study of Brachypodium distachyon with 6 samples.

Results

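Glutamine synthetase was examined in roots of the grass Brachypodium distachyon through 2 transcripts, a cytosolic form (GS1, row BRADI_1g69530v3) and a plastid form (GS2, row BRADI_5g24550v3), of the 29627 features in the count table. The rows were chosen by identifier. The names GS1, described as the orthologue of rice GS1;2, and GS2 come from that choice, because the deposited table pairs its identifiers with no names. The RefSeq gene table at hand holds neither identifier (0 of 2 matched), so the names could not be checked and no gene length, coordinate or sequence is given here. The digit after the prefix places the GS1 row on chromosome 1 and the GS2 row on chromosome 5, by the naming convention of this species.

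All plants were of the inbred reference line Bd21, with no other genotype. Seedlings of 7 days were moved to hydroponic tanks of 4.5 L and kept there for 19 days at 2.5 mM nitrogen. In the nitrate group nitrogen was 1.25 mM Ca(NO3)2, and in the ammonium group it was 1.25 mM (NH4)2SO4, so that calcium and sulfate changed together with the nitrogen form. Each group held 3 whole-root RNA libraries, and 12 seedlings were pooled for each. Whether pools of the same group grew in separate tanks is not stated, so the p-values rest on a spread between pools that may in part be technical. There was no group without nitrogen or with both forms, and a fall from nitrate to ammonium cannot be told apart from a rise in the opposite direction. No identifier could be paired with a root or shoot marker gene, so the tissue label was not checked against markers.

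Glutamine synthetase joins ammonium to glutamate, using ATP, to make glutamine, and is the main entry of inorganic nitrogen into amino acids in plants. Grasses carry a small family of cytosolic forms, which assimilate ammonium in roots and handle nitrogen for transport, and a plastid form. The plastid form works beside glutamate synthase and takes up ammonium made by nitrate reduction and, in leaves, by photorespiration. In rice, GS1;2 is a cytosolic form of roots whose transcript is known to respond to ammonium supply. Ammonium-fed roots receive ammonium directly, whereas nitrate-fed roots must first reduce nitrate, in the cytosol and then in the plastid.

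The libraries held 22470936 to 29547877 counts. Nitrogen form parted all ammonium from all nitrate libraries on the first principal component. Of the ammonium libraries, replicate 3 was the least separated from nitrate on that component (49.1, against 72.8 and 68.1), and results are also given without it. The GS1 row had 41340 to 72596 counts per library, which put it at rank 12 to 24 by count in each library. The GS2 row had 5065 to 10412 counts and stood at rank 317 to 900. Counts depend on transcript length, which is not known here, so the levels of GS1 and GS2 are not ranked against each other.

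Plastid GS2 was lower in ammonium-fed than in nitrate-fed roots and passed the threshold of the edgeR test. The higher mean of cytosolic GS1 under ammonium did not pass it (edgeR adjusted p = 0.059). With the replicate number as a block in the edgeR fit, GS1 did pass (adjusted p = 0.042). GS2 averaged 345 ± 22.9 CPM (read counts scaled to library size with TMM factors) in nitrate roots and 197 ± 12.3 CPM in ammonium roots (SD, n = 3 each). GS1 stood at 1893 ± 253 CPM under nitrate and 2373 ± 177 CPM under ammonium (SD, n = 3 each). The ratio of GS1 to GS2 counts was higher in every ammonium library than in every nitrate library. GS2 alone also parted the groups, as did 54.4% of all tested features.

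**Figure D1:**
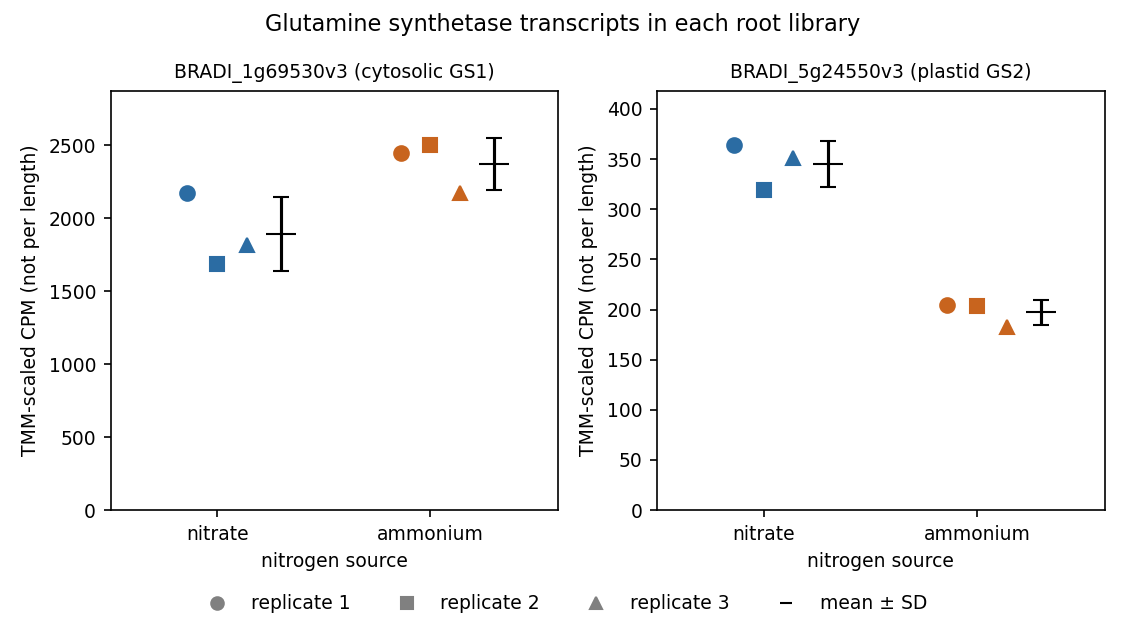
TMM-scaled CPM (vertical axis, from 0) of cytosolic GS1 (left) and plastid GS2 (right) in each nitrate and ammonium library; symbols mark the replicate number and black bars the mean ± SD (n = 3). The GS2 groups are apart, with nitrate libraries at 319 to 364 CPM and ammonium libraries at 183 to 205 CPM, whereas the lowest GS1 value under ammonium (2171 CPM) lies beside the highest under nitrate (2175 CPM).

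The plastid form was the member with a clear difference. GS2 was measured at 364, 319 and 351 CPM in nitrate replicates 1 to 3. In ammonium replicates 1 to 3 it was measured at 205, 204 and 183 CPM. Every ammonium library thus lay below every nitrate library. As a share of all counts, GS2 took 0.0316% to 0.0358% of the nitrate libraries and 0.0184% to 0.0206% of the ammonium libraries. The exact 95% binomial intervals of these shares, which cover counting error only, reached down to 0.0309% in nitrate and up to 0.0211% in ammonium. Over the 9 possible pairs of an ammonium with a nitrate library, the ratio of GS2 levels ran from 0.503 to 0.642.

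The log2 fold change of GS2, ammonium over nitrate, was -0.81 (SE 0.09, 95% interval -1.01 to -0.60; quasi-likelihood test of edgeR, p adjusted by Benjamini-Hochberg = 0.00019). This equals a level 1.75 times higher under nitrate, with an interval of 1.52 to 2.01. A two-sided exact permutation test of the 3 against 3 CPM values gave p = 0.1, the smallest value this design allows. A call was not unusual in these roots. Of all 23694 tested features 41.4% passed the threshold, 22.2% as lower and 19.2% as higher under ammonium, and 54.4% had libraries that did not overlap between the groups. The size of the GS2 change was larger than that of 81.0% of tested features, and close to the median of the features called lower, which was -0.77. Among 1315 features with a mean CPM within 2-fold of that of GS2, 55.3% passed the threshold, 34.0% as lower and 21.3% as higher. Their median log2 fold change was -0.12, and 10.1% had a lower value than GS2.

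The cytosolic form varied more between pools of the same group. GS1 was measured at 2175, 1687 and 1818 CPM in nitrate replicates 1 to 3. In ammonium replicates 1 to 3 the values were 2448, 2501 and 2171 CPM. Nitrate replicate 1 was the highest nitrate library and ammonium replicate 3 the lowest ammonium library, and the groups overlapped at these libraries. The coefficient of variation of GS1 was 13.4% under nitrate and 7.47% under ammonium, against 6.65% and 6.24% for GS2. Counting error is far smaller than this spread: the exact 95% binomial interval of the GS1 share of counts in nitrate replicate 2 was 0.165% to 0.168%.

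The log2 fold change of GS1 was 0.33 (SE 0.12, 95% interval 0.05 to 0.60), or 1.25-fold with an interval of 1.04 to 1.52. Its edgeR adjusted p was 0.059, above the threshold, although the p before adjustment was 0.025. The exact permutation test gave a two-sided p = 0.2. No change and a rise of more than 1.52-fold both lie outside this interval, which is not adjusted for the number of tested features. A small rise lies inside it. On the log2 scale the interval moved to 0.16 to 0.71 without nitrate replicate 1, and to 0.11 to 0.65 without ammonium replicate 3. It included no change without nitrate replicate 2 (-0.03 to 0.53) or nitrate replicate 3 (-0.03 to 0.61). The same held without ammonium replicate 1 (-0.03 to 0.64) or ammonium replicate 2 (-0.05 to 0.62). The size of the GS1 difference sat in the middle of the distribution, larger than that of 50.07% of tested features. Among 54 features with a mean CPM within 2-fold of that of GS1, 63.0% passed the threshold, 24.1% as higher and 38.9% as lower, and 22.2% had a larger log2 fold change.

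Whether GS1 passed the threshold depended on how the same counts were treated. Libraries of the same replicate number deviated together weakly across features (r of 0.11 to 0.21), and no label states what they share. With that number as a block, the log2 fold change of GS1 was 0.33 with an edgeR adjusted p = 0.042. Scaling by library size alone gave 0.34 with an adjusted p = 0.044, and the DESeq2 Wald test gave 0.33 with an adjusted p = 0.024. With RLE size factors, upper quartile scaling or library size alone in place of TMM, the GS1 groups no longer overlapped. The exact permutation test then gave p = 0.1, the smallest value this design allows, which any feature without overlap reaches. With TMM, 54.4% of all tested features had no overlap between the groups. The GS1 margin was narrow. With RLE size factors, the highest nitrate and the lowest ammonium library were at 2169.88 and 2169.97 CPM. With library size alone they were at 2139 and 2184 CPM. Over all 14 alternative settings the adjusted p of GS1 ran from 0.024 to 0.17, and 7 of them passed the threshold. Single libraries moved it as well. Leaving out nitrate replicate 1 gave a log2 fold change of 0.44 (edgeR adjusted p = 0.029), and leaving out ammonium replicate 3 gave 0.38 (edgeR adjusted p = 0.030). With nitrate replicate 2, the lowest GS1 library, left out, the value was 0.25 (edgeR adjusted p = 0.15). GS1 also stayed above the threshold without nitrate replicate 3 (0.29, edgeR adjusted p = 0.13). Leaving out ammonium replicate 1 gave 0.30 (edgeR adjusted p = 0.15), and leaving out ammonium replicate 2 gave 0.28 (edgeR adjusted p = 0.17). GS2 passed the threshold under all 14 settings, with an adjusted p of 0.0016 at most, and stood at -0.76 without ammonium replicate 3.

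**Figure D2:**
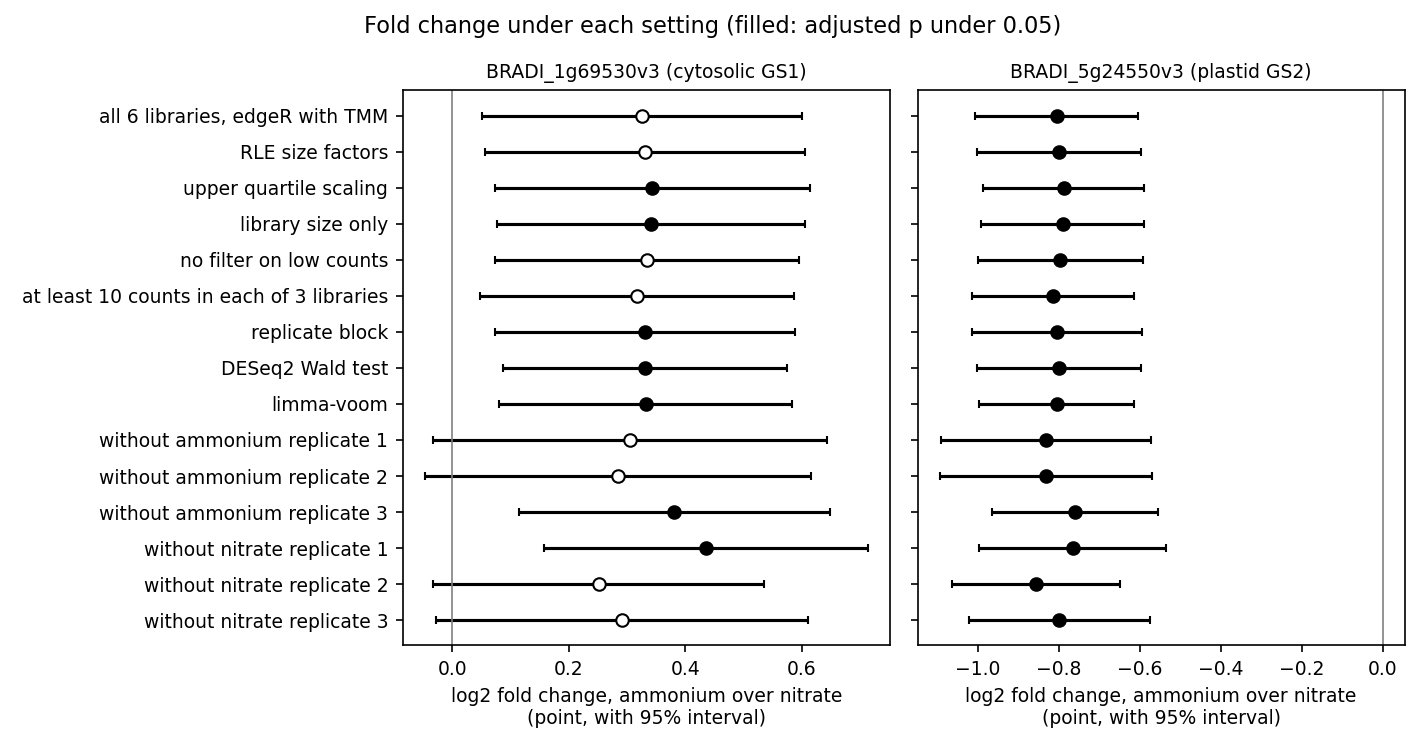
Log2 fold change, ammonium over nitrate (horizontal axis), with its 95% interval for cytosolic GS1 (left) and plastid GS2 (right) under each setting listed on the vertical axis; filled points have an adjusted p under 0.05. GS2 stays between -0.86 and -0.76 and is filled throughout, whereas GS1 lies between 0.25 and 0.44 and is filled in 7 of the 14 alternatives to the top line.

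The balance between the forms parted the treatments in all libraries. It compares counts within a library, so that library size and scaling cancel, and a gene's length cancels in its change between groups. There were 5.98, 5.28 and 5.18 counts of GS1 per count of GS2 in nitrate replicates 1 to 3. In ammonium replicates 1 to 3 this ratio was 11.9, 12.3 and 11.9. The lowest ammonium library thus stood well above the highest nitrate library. The mean ratio was 5.48 ± 0.434 under nitrate and 12.03 ± 0.219 under ammonium (SD, n = 3 each), 2.19 times higher. On the log2 scale the ratio was higher by 1.14 under ammonium, against a pooled SD of 0.08 between libraries of a group. This joins the log2 fold changes of GS2 (-0.81) and GS1 (0.33), so it is not a result apart from theirs. GS2 alone already parted the groups, as did 54.4% of all tested features. No p-value is given for the ratio, because it combines genes that were chosen together.

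GS2 accounted for 15.5% ± 1.001 of the counts of the pair under nitrate and 7.68% ± 0.128 under ammonium (SD, n = 3 each). The nitrate libraries held 14.3%, 15.9% and 16.2%, and the ammonium libraries 7.72%, 7.53% and 7.77%. No 95% binomial interval of an ammonium library reached above 7.98%, and none of a nitrate library below 14.07%. Ammonium replicate 3, which had the lowest ammonium level of both members, had a GS2 share beside those of the other ammonium libraries. The sum of both members was 2539, 2006 and 2169 CPM in nitrate replicates 1 to 3. It was 2652, 2704 and 2354 CPM in ammonium replicates 1 to 3. Nitrate replicate 1 lay above ammonium replicate 3 in this sum, so the groups overlapped in the sum and not in the share.

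**Figure D3:**
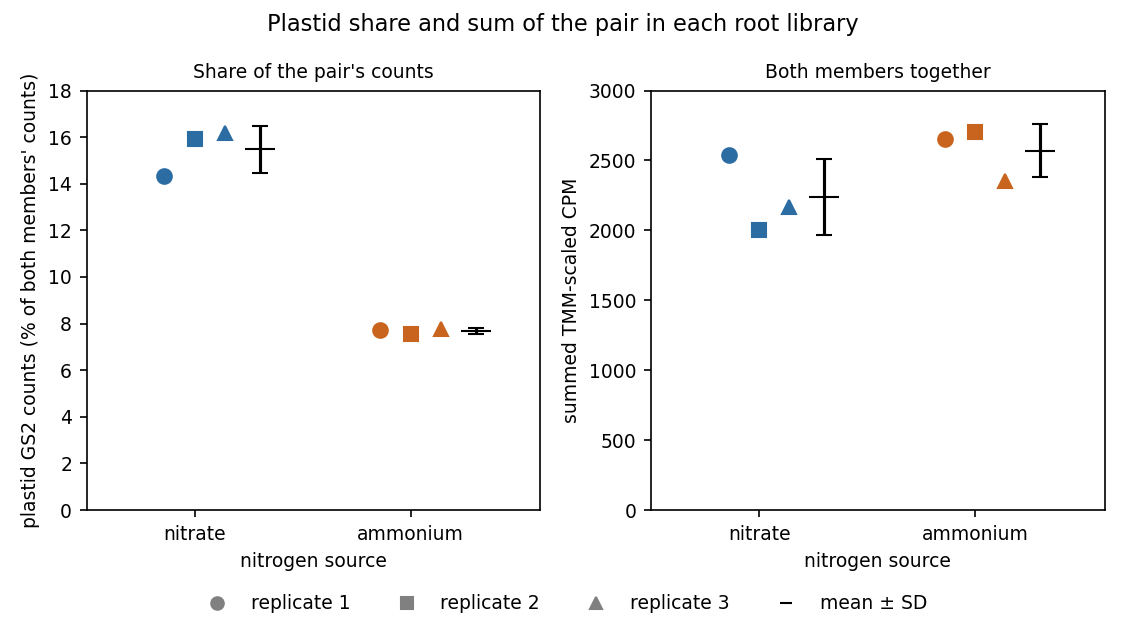
Left, GS2 counts as a percentage of GS1 plus GS2 counts; right, summed TMM-scaled CPM of GS1 and GS2; both axes start at 0, points are libraries and black bars the mean ± SD (n = 3). The GS2 share parts the groups (14.3% to 16.2% under nitrate, 7.53% to 7.77% under ammonium), whereas the sum overlaps (2006 to 2539 CPM and 2354 to 2704 CPM).

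GS1 and GS2 lay on the same side of their group means in 5 of 6 libraries. Both were high in nitrate replicate 1 and in ammonium replicates 1 and 2, and both were low in nitrate replicate 2 and ammonium replicate 3. These signs are not independent, since deviations within a group sum to 0, and whole libraries also deviate together. In nitrate replicate 3, with opposite signs, the deviations on the log2 CPM scale were small, at -0.05 for GS1 and 0.03 for GS2. The count ratio had a coefficient of variation of 1.82% under ammonium, below that of either member alone. In the nitrate libraries it was 7.92%, below the 13.4% of GS1 but above the 6.65% of GS2, with replicate 1 apart from the others. Counting error alone gives each log2 ratio an SE of 0.015 to 0.021, against a between-library SD of 0.026 under ammonium and 0.112 under nitrate.

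Ammonium replicate 3 was low in both members, with deviations from the ammonium mean of log2 CPM of -0.13 for GS1 and -0.11 for GS2. On the first principal component this library was the ammonium library nearest to nitrate, and its GS1 level was likewise nearest to nitrate. Its GS2 level (183 CPM) was the farthest from nitrate among the ammonium libraries. This contrast follows from the opposite directions in which the means of GS1 and GS2 differed between the groups. Same-numbered libraries gave ammonium-to-nitrate ratios of 1.13, 1.48 and 1.19 for GS1 in replicates 1 to 3. For GS2 the ratios were 0.563, 0.638 and 0.522. Replicate 2 thus had the highest ratio for both members, and its nitrate library was the lowest nitrate library for both.

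**Figure D4:**
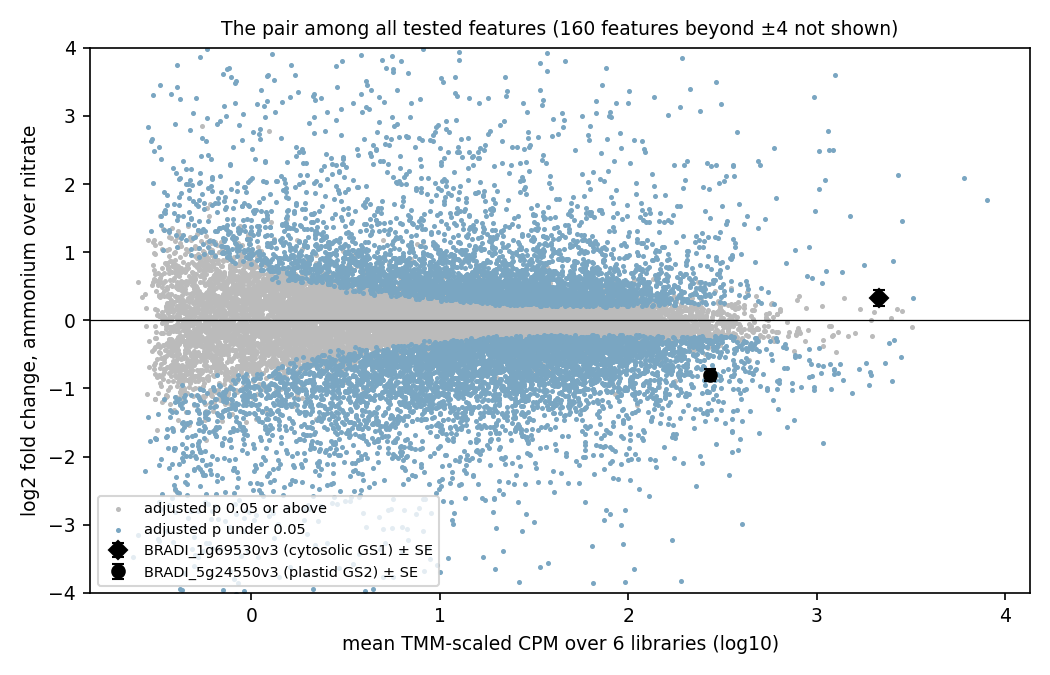
Log2 fold change, ammonium over nitrate (vertical axis, limited to ±4), against the mean TMM-scaled CPM (horizontal axis, log10) for the tested features; blue points passed an adjusted p of 0.05, grey points did not, 160 features lie beyond the axis, and black symbols mark GS1 and GS2 ± SE. GS1 (0.33) lies among a few abundant features that changed in both directions, and GS2 (-0.81) within the band of features called lower.

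The tested features with the most similar pattern to each member were found by Pearson's r of log2 CPM over the 6 libraries, among 16401 others that averaged 5 CPM or more. This describes likeness only, since the libraries share the treatment. For GS2 the highest r was 0.999, with BRADI_4g05050v3. That feature stood at 34.96 ± 0.914 CPM under nitrate and 27.04 ± 0.742 CPM under ammonium (SD, n = 3 each). On the log2 scale it changed by -0.37 (SE 0.07, edgeR adjusted p = 0.0045), less than GS2. In all, 974 features had an r above 0.95 with GS2. For GS1 the highest r was 0.990, with BRADI_1g64100v3, which stood at 40.6 ± 3.27 CPM under nitrate and 47.4 ± 1.58 CPM under ammonium (SD, n = 3 each). That difference did not pass the threshold either (log2 fold change 0.22, SE 0.08, edgeR adjusted p = 0.060). With GS1, 137 features had an r above 0.95. Between GS1 and GS2 themselves r was -0.68.

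Calls among features at neighbouring loci are given beside the 41.4% called over all tested features, and nothing is read from them. Of the 10 tested features around GS1 in the order of locus numbers, 5 on each side, the test called 1 as higher and 3 as lower, and 6 were above the threshold. Around GS2 it called 0 as higher and 3 as lower, with 7 above the threshold. The sources used here do not say how reads were assigned between similar members of the glutamine synthetase family. The part of other cytosolic genes of the family, which were not analysed here, in the GS1 counts was not tested. In whole roots, fewer cells that express a transcript and less transcript per cell cannot be told apart.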

How the data were processed

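Libraries of poly-A RNA were prepared with a NEBNext Ultra RNA kit, per the labels' protocols. The table the authors deposited holds raw read counts. The submitters' processing notes name HISAT2 and HTSeq; the sources used here give no version, genome build, annotation or counting option. None of the 29627 identifiers (0) matched the 31335 genes of the RefSeq table of assembly Brachypodium_distachyon_v3.0, so the planned lists on product names (nitrogen assimilation genes, shoot markers) were not tested.

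The members and tests were chosen with earlier results of these data known. All 6 libraries entered an edgeR 4.0.16 quasi-likelihood fit in R 4.3.3 with nitrogen form as the only term, after filterByExpr (minimum count 10, minimum total 15) and TMM scaling. P-values were adjusted by Benjamini-Hochberg over 23694 tested features, with a threshold of 0.05. The SE was derived from the log2 fold change and its F value. CPM used TMM-scaled library sizes, and log2 CPM a prior count of 2. Alternatives used DESeq2 1.42.0, limma 3.58.1, other scalings and filters, a replicate block and each library left out. Besides the members, the text names the 1 feature most like each member.

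Libraries of a group differed by more than counting noise (chi-square per degree of freedom at least 6.62, against 1 for noise alone). Across features, deviations from group means had correlations of 0.11 to 0.21 between same-numbered libraries and -0.13 to -0.02 between others. These ranges are not independent, since deviations within a group sum to 0. Every same-numbered pair correlated positively, and no label states what such libraries share. The fit without the block remained the main one, and the blocked value is given where it changes a call on a member. The fit was first tested on simulated counts with known changes, in far fewer features than were called here. Most of the larger changes were found again, and most of the smaller ones were missed. The changed features were drawn from all abundances, so the share missed is not that of abundant features such as GS1. Being above the threshold does not by itself show a feature, GS1 included, to be unchanged. Reads carried no molecular identifiers, so intervals on counts cover counting error only.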

Additional observations from a re-analysis of the deposited data

How the results depend on the processing

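The GS2 difference held its sign and passed the threshold under each of the 14 alternatives. Its log2 fold change ran from -0.86 to -0.76 when 1 library was left out and from -0.81 to -0.79 otherwise. GS1 kept its direction but moved past the threshold under upper quartile scaling (log2 fold change 0.34, adjusted p = 0.046), library size only (0.34), the replicate block (0.33), the DESeq2 Wald test (0.33) and limma-voom (0.33). When 1 library was left out, GS1 ran from 0.25 to 0.44 and passed without ammonium replicate 3 or nitrate replicate 1. Besides that of GS1, the replicate block changed no call of a named member: GS2 stood at -0.81 with it. Over all tested features, 10526 were called with the block and 9800 without it. The number of calls ran from 7103 to 9898 with 1 library left out and from 9293 to 10526 otherwise. The difference in the log2 ratio of GS1 to GS2 counts was 1.10 to 1.20 with 1 library left out, 1.12 from summed counts and 1.14 as the mean of same-numbered pairs. The CPM differences under 3 other scalings, added after the data were seen, were 487 to 506 for GS1 (480 with TMM) and -147 to -144 for GS2 (-147 with TMM). With 5065 counts or more per library and row, counting error alone gave the log2 ratios an SE of at most 0.021, so that 3 pools per group limit the precision more than depth does for GS1 and GS2 levels.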
